A study of Rattus norvegicus with 2 samples.

Results

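Scgb1a1, Scgb3a1 and Scgb3a2 encode the main secretoglobins of the rat airway. They were taken by symbol as 3 of the 42172 genes listed in both libraries, where 8 other genes also carry an Scgb symbol. The lung cells came from 1 control library and 1 explosion library, made from rats without and with exposure to a gas explosion. The labels give no strain, age, time after the explosion or number of animals per library. With 1 library per group there was no test between groups. Each value is given with a 95% interval that covers counting error only, so differences between animals or between preparations cannot be told apart from differences between the groups. The 3 genes were chosen by their UMI levels in the cell classes and in these 2 libraries, so their pattern is given as a description.

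Secretoglobins are small secreted proteins of the airway lining fluid. Scgb1a1, also called CC10 or CCSP, is the abundant product of club cells, the non-ciliated secretory cells of the bronchioles. Scgb3a1 is made mainly by secretory and mucous cells of the larger airways, and Scgb3a2, first described as a target of the transcription factor NKX2-1, is made mainly by club cells. Club cells also carry the cytochrome P450 enzymes that activate inhaled chemicals, and they can give rise to ciliated cells after injury.

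The 250 bases before the annotated start of each gene are shown because secretory-like and ciliated-like cells held the highest levels of all 3 genes. They are RefSeq sequence on GRCr8, written 5′ to 3′ on the gene's strand, and all 3 genes were matched by symbol. The windows lie at chr1:215409687-215409936 on the minus strand for Scgb1a1, chr10:34468916-34469165 on the plus strand for Scgb3a1 and chr18:36183495-36183744 on the plus strand for Scgb3a2. Capitals mark matches to letters read by factors of the airway epithelium.
Scgb1a1: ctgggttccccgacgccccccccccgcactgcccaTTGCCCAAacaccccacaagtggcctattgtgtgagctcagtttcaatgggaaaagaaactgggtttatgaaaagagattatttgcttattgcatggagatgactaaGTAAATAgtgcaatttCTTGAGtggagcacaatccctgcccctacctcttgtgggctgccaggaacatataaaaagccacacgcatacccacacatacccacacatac
Scgb3a1: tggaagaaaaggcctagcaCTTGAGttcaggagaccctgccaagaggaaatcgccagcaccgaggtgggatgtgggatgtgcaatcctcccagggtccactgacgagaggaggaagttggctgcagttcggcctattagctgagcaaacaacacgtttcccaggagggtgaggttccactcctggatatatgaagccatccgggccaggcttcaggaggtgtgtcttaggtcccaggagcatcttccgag
Scgb3a2: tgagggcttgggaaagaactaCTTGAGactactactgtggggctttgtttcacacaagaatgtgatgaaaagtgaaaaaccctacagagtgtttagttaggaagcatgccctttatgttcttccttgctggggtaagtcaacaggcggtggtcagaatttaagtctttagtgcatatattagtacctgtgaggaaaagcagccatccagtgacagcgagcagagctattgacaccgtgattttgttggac

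Both strands of each window were searched for 3 motifs. CTCAAG, letters read by NKX2-1, was found on the opposite strand of all 3 genes as CTTGAG, beginning 92 bases before the start of Scgb1a1, 231 before that of Scgb3a1 and 229 before that of Scgb3a2. It was present in 13.3% of the 27457 rat promoter windows of this length. The forkhead letters TGTTTAC or TATTTAC were found for Scgb1a1 alone, 108 bases before the start, and in 6.21% of all windows. The C/EBP letters TTNNGCAA or TTNNGTAA were also found for Scgb1a1 alone, 215 bases before the start, and in 16.3% of all windows. No 2 of these matches overlap. A match is a run of letters and was not tested as a binding site.

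After filtering and removal of called doublets, 19231 control cells and 11845 explosion cells were kept. Unique molecular identifiers (UMIs), each standing for 1 captured transcript, had a median of 4677 per kept control cell and 532 per kept explosion cell. The shallowest deposited barcode had 500 UMIs for the control and 231 for the explosion, and 85 barcodes were shared (0.403% of control and 0.672% of explosion barcodes). Clusters were made without the 3 genes and named from markers that leave them out. Of the secretory markers, 17 were found, and 15 had a UMI in the control secretory-like cells and 14 in those of the explosion library. Tff2 and Reg3g were at 0 in both, and Ltf was at 0 in the explosion library. Levels are the gene's UMIs per 10000 UMIs of all genes in the cells named.

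In the whole control library Scgb1a1 was the most abundant gene, at 24.0% of all UMIs, and in the explosion library it also ranked first, at 6.11%. The other 2 genes were far lower than Scgb1a1 in both libraries. Scgb3a1 was at 98.4 UMIs per 10000 in the control and 1.11 in the explosion library, 88.6-fold lower (83.0 to 94.5). Scgb3a2 was at 98.6 and 9.73, 10.1-fold lower (9.92 to 10.4). These library totals also move with the mix of cells: among control cells 15.3% were secretory-like (14.8 to 15.9), and among explosion cells 6.10% (5.67 to 6.54). Dissociation, dead-cell removal and the unequal UMI minimum can set such shares.

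Secretory-like clusters held most UMIs of the 3 genes in both libraries. Control secretory-like cells held 80.3% of their library's Scgb1a1 UMIs and explosion secretory-like cells 79.3%, beside 72.3% and 78.6% for Scgb3a1 and 80.2% and 82.2% for Scgb3a2. Ciliated-like cells held 14.9% and 9.67% of Scgb1a1, 23.5% and 9.47% of Scgb3a1, and 16.05% and 10.2% of Scgb3a2. With secretory-like cells taken by a gate on single cells instead of by cluster, the explosion shares were 42.3% for Scgb1a1, 70.7% for Scgb3a1 and 47.2% for Scgb3a2, and the control shares 71.7%, 72.03% and 73.4%. By cluster, the Scgb1a1 UMIs left for all remaining cells were 4.76% (control) and 11.01% (explosion).

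**Figure D1:**
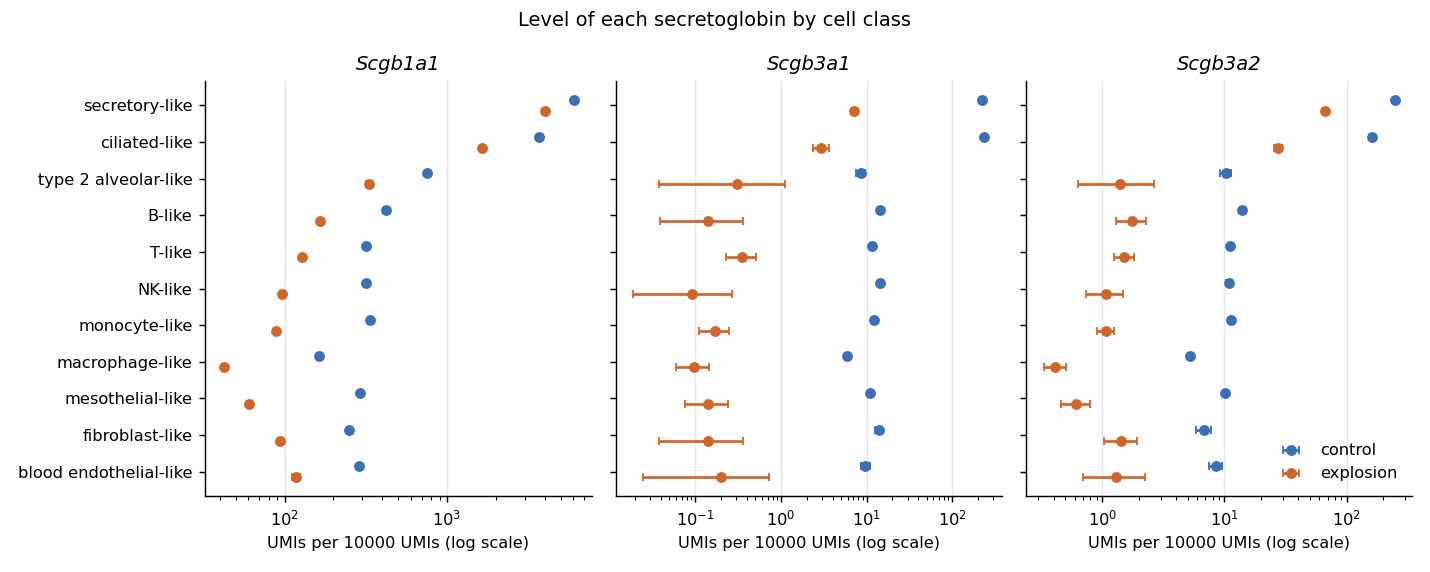
Level of each gene in UMIs per 10000 UMIs (log axis) in 11 cell classes, 1 point per library with its 95% counting interval. Secretory-like and ciliated-like cells lie to the right in all 3 panels, and every explosion point lies left of its control point.

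Ordered by level over classes with at least 50 cells, Scgb1a1 ran from secretory-like through ciliated-like and type 2 alveolar-like cells down to macrophage-like cells in both libraries. In the control library it was 6053 UMIs per 10000 in secretory-like cells (6051 to 6056), 3664 in ciliated-like cells, 757 in type 2 alveolar-like cells and 164 in macrophage-like cells. The same classes of the explosion library held 4005 (3993 to 4018), 1646, 329 and 42.5. Of 12 neighbouring pairs in the control order, 2 had overlapping intervals, and of 11 in the explosion order, 1 did. Scgb3a2 was also highest in secretory-like and second in ciliated-like cells of both libraries, as was Scgb3a1 in the explosion library. In the control library Scgb3a1 was higher in ciliated-like cells, at 237 UMIs per 10000 (236 to 238), than in secretory-like cells, at 223 (223.003 to 223.953). Of those 276213 ciliated-like UMIs, 265941 lay in cluster 21, a deep cluster that also had 12 secretory markers raised. Cluster 15, the larger ciliated-like cluster, held Scgb3a1 at 37.4. For the other 2 genes the order below the airway classes was mostly not resolved. Intervals of neighbours overlapped in 8 of 12 control and 9 of 11 explosion pairs for Scgb3a1, and in 7 of 12 and 9 of 11 for Scgb3a2.

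Within secretory-like cells all 3 genes were lower in the explosion library, least for Scgb1a1 and most for Scgb3a1. Scgb1a1 took 60.5% of the UMIs of these cells in the control and 40.1% in the explosion library, 1.51-fold lower (1.51 to 1.52). Scgb3a2 was at 248 UMIs per 10000 in the control and 66.0 in the explosion library, 3.76-fold lower (3.67 to 3.85). Scgb3a1 was at 223 and 7.22, 31.0-fold lower (28.8 to 33.3). By number of UMIs, Scgb3a1 was the third most abundant gene of control secretory-like cells and ranked 63 in the explosion library. Scgb3a2 ranked 2 and 4.

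So large a share of 1 gene lowers every other share. The 1790 genes with a mean of at least 50 CPM (UMIs scaled to a total of 1000000 per class and library) in secretory-like cells had a median log2 ratio, explosion over control, of 1.33. Relative to that median the log2 ratio was -1.93 for Scgb1a1, -6.28 for Scgb3a1 and -3.24 for Scgb3a2. With the 3 genes left out of the denominator the median over 3764 genes was 0.62, and the genes were 2.58-fold, 52.8-fold and 6.40-fold lower. At 2-fold, 5.47% of the genes tested were lower and 57.8% higher in the explosion library. Scgb3a1 and Scgb3a2, 2 of the 3, were past that line, which was part of how they were chosen.

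The secretory-like cells of the libraries differed in depth and in composition. Their median was 11496 UMIs in the control and 1400 in the explosion library, and the median mitochondrial share of UMIs was 0.418% and 2.49%. Most control cells lay in clusters 5 and 13, and 663 of the 722 explosion cells lay in cluster 16. The 13 T cell markers summed to 0.190 and 0.900 UMIs per 10000 in secretory-like cells, with Cd3d at 0 in the explosion library. The 16 ciliated markers summed to 0.486 and 0.554, with Tmem212, Sntn and Spag16 at 0 in the explosion library. The 21 macrophage markers found summed to 3.49 and 3.96. Marco and Ear1 were at 0 in both libraries, and neither was among the raised markers of any macrophage-like cluster. Siglec5, Ctsk, Cidec and Cd163 were at 0 in the explosion library. The 12 type 2 alveolar markers, Sftpb and Sftpd among them, summed to 80.7 and 110, above the 43.3 and 63.5 of the 17 secretory markers. Sftpb alone was at 25.5 and 50.05, and Sftpc at 1.07 and 0.761. The part of these differences in the levels was not tested.

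Cell by cell, Scgb1a1 filled most of the RNA of a control secretory-like cell and less of an explosion cell. The median cell gave it 60.0% of its UMIs in the control, with the 10th and 90th percentiles at 35.1% and 72.2%. In the explosion library the median was 41.1%, with the 10th and 90th percentiles at 23.1% and 49.4%. The 2 distributions overlapped. Scgb1a1 reached at least 50% of a cell's UMIs in 2178 of 2950 control cells (73.8%) and in 59 of 722 explosion cells (8.17%), and the highest cell was at 84.7% and 57.5%. In absolute numbers the median cell held 6739 Scgb1a1 UMIs in the control and 562 in the explosion library. The highest secretory-like cell of the control held 43911 Scgb1a1 UMIs. A larger entry, 57794 in a cell of 89168 UMIs, lay in cluster 21, a ciliated-like cluster described with that class.

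**Figure D2:**
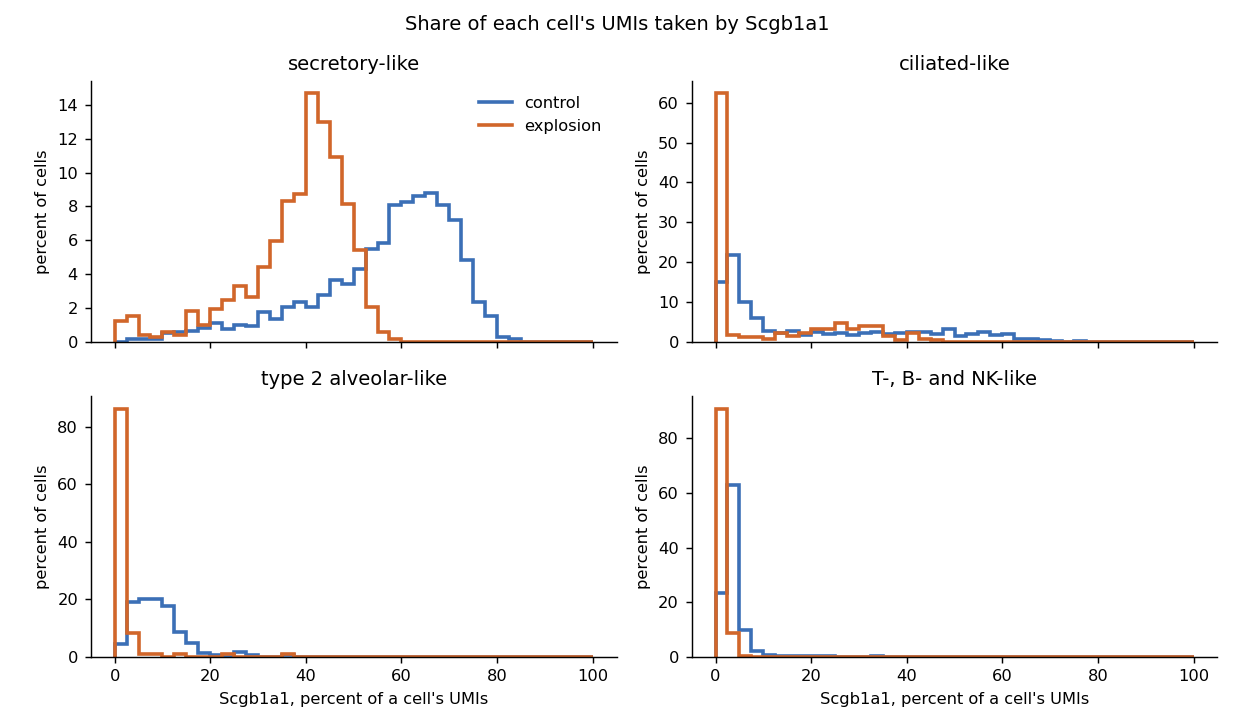
Percent of cells (y axis) by the percent of a cell's UMIs that came from Scgb1a1 (x axis), for 4 groups of cells in both libraries. Secretory-like cells peak between 65% and 67.5% in the control, above their median of 60.0%, and near their median of 41.1% in the explosion library. T-, B- and NK-like cells peak near 3.21% and 1.30%.

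Scgb3a1 was concentrated in few cells and Scgb3a2 was spread widely. In the control, 156 of 2950 secretory-like cells (5.29%) together held 50% of the Scgb3a1 UMIs, against 601 cells (20.4%) for Scgb3a2 and 737 (24.98%) for Scgb1a1. The median control cell held 15 Scgb3a1 UMIs and the highest 9754. In the explosion library 7 cells (0.970%) held 50% of the Scgb3a1 UMIs, 620 of 722 cells held none, and the highest cell held 101. Scgb3a2 stayed widely detected there, with a median of 8 UMIs and 45 cells without any.

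Shares of cells with a UMI were compared after each cell was thinned to 500 UMIs, which left out 49 of 722 explosion secretory-like cells and 2018 of 2900 explosion T-, B- and NK-like cells, and no control cell of either kind. Scgb3a1 was then detected in 57.9% of control and 9.06% of explosion secretory-like cells (98.4% and 14.1% before thinning). Scgb3a2 was detected in 99.3% and 89.3%. Both genes were seen in 57.5% of control and 8.92% of explosion cells, and Scgb3a2 without Scgb3a1 in 41.9% and 80.4%. In T-, B- and NK-like cells, which should lack the genes, thinned detection of Scgb3a1 was 44.0% in the control and 1.02% in the explosion library. For Scgb3a2 it was 44.1% and 5.44%. The median depth of these lymphoid cells before thinning was 1518 and 409 UMIs, so the explosion reading comes from its 882 deepest lymphoid cells. Secretory-like cells had medians of 11496 and 1400 UMIs, so thinning kept a smaller part of them. The lymphoid shares are thus not the background within the secretory-like shares, and that part was not tested.

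Among the secretory-like clusters, Scgb3a1 marked 1 and the other 2 genes were high in all. Cluster 13, led by Bpifa1, Bpifb1 and Muc5b, which encode secreted proteins and a mucin of the conducting airways, held Scgb3a1 at 677 UMIs per 10000 in its 888 control cells. It alone held 61.5% of all control Scgb3a1 UMIs in 4.62% of the cells. Cluster 5, led by Chia, Lypd2 and Bpifa5, had 1550 control cells and held Scgb3a1 at 49.04 but Scgb1a1 at 6425, above the 5288 of cluster 13. Cluster 20, led by Ccl20, an epithelial chemokine gene, held Scgb1a1 at 5854 and Scgb3a1 at 20.9 in 396 control cells. Scgb3a2 was at 258, 238 and 204 in clusters 5, 13 and 20.

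The explosion library held few cells of these clusters. Its 25 cells of cluster 13 held Scgb3a1 at 186 UMIs per 10000 (169 to 205), 3.63-fold below the control cells of that cluster, and carried 47.5% of the library's Scgb3a1 UMIs. Scgb1a1 was at 2874 in them and Scgb3a2 at 67.7. In the 26 explosion cells of cluster 5 Scgb1a1 was at 3989, Scgb3a1 at 5.23 (3.39 to 7.73) and Scgb3a2 at 76.0. There 1 cell held 17 of the 25 Scgb3a1 UMIs. Without cluster 13, Scgb3a1 in secretory-like cells was 15.96-fold lower in the explosion library instead of 31.0-fold.

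Cluster 16 was the secretory-like cluster with at least 50 cells in both libraries, 116 control and 663 explosion cells, and was led by Chia, Kcnj15 and Elapor1. There Scgb1a1 was at 4147 UMIs per 10000 (4120 to 4175) in the control and 4037 (4024 to 4050) in the explosion library, 1.03-fold lower (1.02 to 1.04). Scgb3a2 was at 119 and 65.5, 1.81-fold lower (1.73 to 1.90), which is within 2-fold. Scgb3a1 was at 106 and 2.73, 38.7-fold lower (34.0 to 44.3). In this cluster 8.24% of 2380 genes tested were lower past 2-fold and 13.2% higher, with a median log2 ratio of 0.20. Scgb1a1 and Scgb3a2 were closer between the libraries in this cluster than in the whole class, and Scgb3a1 was not.

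The control side of cluster 16 is thin and uneven. Its 116 cells had a median of 1060 UMIs and 6.59% mitochondrial UMIs, against 0.418% over all control secretory-like cells, and the 663 explosion cells had 1402 UMIs and 2.49%. Of the control Scgb3a1 UMIs in cluster 16, 2 cells held 50%, the highest with 864, and the median cell held 2. Of the 663 explosion cells, 591 held none. For Scgb3a1 the class sum of the control cluster therefore rests on a few cells.

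**Figure D3:**
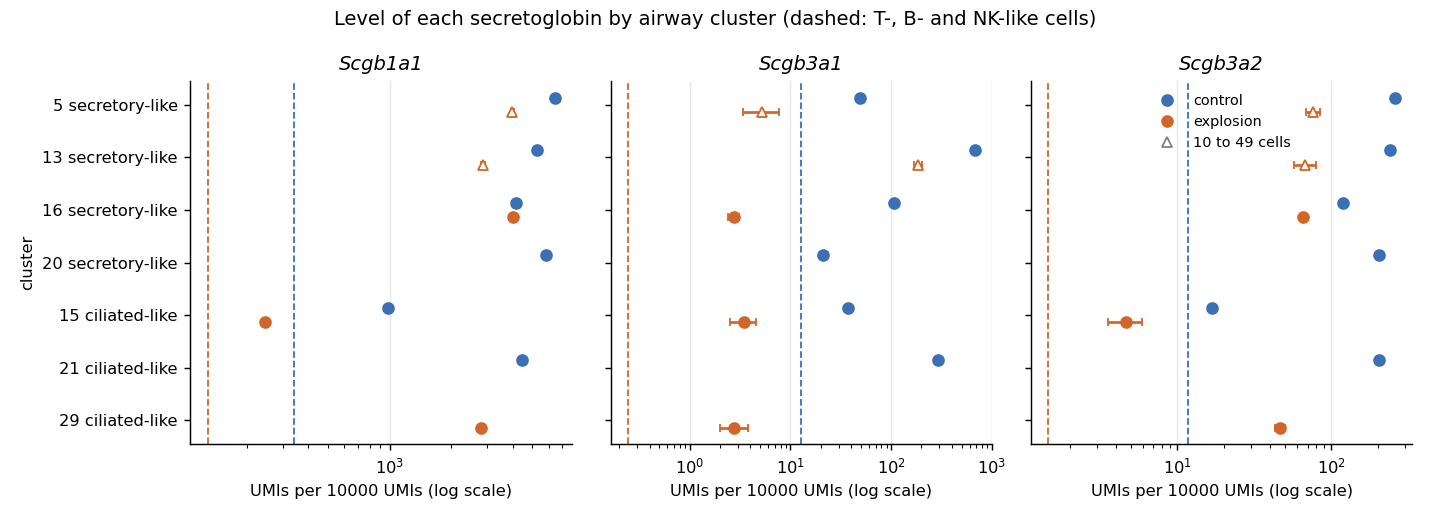
Level of each gene in UMIs per 10000 UMIs (log axis) in 4 secretory-like and 3 ciliated-like clusters, with 95% counting intervals; open triangles are clusters of 10 to 49 cells in that library, smaller ones are not drawn, and dashed lines give the level in T-, B- and NK-like cells. Scgb3a1 stands highest in cluster 13 in both libraries (677 and 186), and the 2 Scgb1a1 points of cluster 16 nearly coincide (4147 and 4037).

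Ciliated cells move mucus along the airway. The ciliated-like class was mixed for these genes. Cluster 15, with 637 control and 191 explosion cells and 4 secretory markers raised (at least 2-fold above other clusters), held Scgb1a1 at 981 and 245 UMIs per 10000, Scgb3a1 at 37.4 and 3.44, and Scgb3a2 at 16.7 and 4.63. Cluster 21 held 354 control cells of very high depth (median 21355 UMIs) with 12 secretory markers raised, and Scgb1a1 at 4456. Cluster 29 held 82 explosion cells (median 1740.5 UMIs) with 11 secretory markers raised, and Scgb1a1 at 2795. Scgb3a1 was at 295 in cluster 21 and 2.78 in cluster 29, and Scgb3a2 at 204 and 46.4. Whether any of these are droplets of 2 cells that the doublet caller left was not tested.

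With clusters 21 and 29 counted as secretory-like, that class held 94.3% (control) and 88.3% (explosion) of the Scgb1a1 UMIs. In cluster 15 the median cell was far below the sum: 98 Scgb1a1 UMIs in the control, where 28 of 637 cells held 50% of them, and 6 in the explosion library. The median cell's share was 4.29% and 1.00%, beside 3.21% and 1.30% in T-, B- and NK-like cells.

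Type 2 alveolar cells make surfactant. The type 2 alveolar-like cells, 163 control and 96 explosion cells, carried all 12 type 2 markers found, with Sftpc leading. Scgb1a1 was at 757 UMIs per 10000 in the control and 329 in the explosion library, 2.23 and 2.56 times the level of T-, B- and NK-like cells. The median control cell gave Scgb1a1 8.19% of its UMIs, against 3.21% in those lymphoid cells, and the median explosion cell 1.26% against 1.30%. In the explosion library 3 of the 96 cells held 50% of the Scgb1a1 UMIs, so the excess of the sum rests on those cells. Scgb3a1 (8.50 and 0.308) and Scgb3a2 (10.2 and 1.39) were at 0.669 and 1.27 times, and 0.878 and 0.956 times, the lymphoid level and are read as background. The control cells were shallow, at a median of 750 UMIs. The 17 secretory markers found summed to 14.7 and 54.2 UMIs per 10000 in these cells. In the control 11 of them had a UMI and in the explosion library 6, with Bpifa1, Bpifb1 and Muc5b among those at 0. Of the 352 explosion UMIs, Cyp2f4 gave 2 and Cyp2b1 gave 4.

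No cluster was type 1 alveolar-like. A gate on single cells found 22 control and 13 explosion cells with more type 1 markers than any other, and the median of these held 48 and 4 Scgb1a1 UMIs. The medians in T-, B- and NK-like cells were 50 and 6. Summed over the gate, Scgb1a1 was at 2517 and 887 UMIs per 10000, with 5330 of its 6407 control UMIs and 558 of its 613 explosion UMIs in 1 cell each.

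T, B and NK cells are not known to make secretoglobins, and the deposited matrices hold no empty droplets, so these cells served to read free RNA. Every one of the 2728 control cells held Scgb1a1, with a median of 50 UMIs, and 99.8% of the 2900 explosion cells did, with a median of 6. Scgb1a1 was at 339 UMIs per 10000 in the control and 128 in the explosion library, 2.64-fold lower (2.60 to 2.68). Scgb3a1 was at 12.7 and 0.243, 52.3-fold lower (37.2 to 76.1), and Scgb3a2 at 11.7 and 1.45, 8.05-fold lower (6.98 to 9.33). These folds depended on the cells taken: for Scgb3a1 the fold was 33.2 in T-like, 100.3 in B-like and 156 in NK-like cells, and with called doublets kept it was 128 for Scgb3a1, 18.2 for Scgb3a2 and 5.37 for Scgb1a1. The order of the 3 genes was that of the secretory-like cells: the fold was smallest for Scgb1a1 and largest for Scgb3a1. In all, 33 Scgb3a1 UMIs were found in the explosion lymphoid cells, 26 of them in T-like, 4 in B-like and 3 in NK-like cells.

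In lymphoid cells the background grew less than the depth of a cell. Control lymphoid cells were ranked into 4 equal groups by depth, with median depths from 832 to 2583.5 UMIs. Mean Scgb1a1 went from 38.0 UMIs in the shallowest to 84.0 in the deepest group, while its share went from 4.69% to 2.89%. In the explosion library depth went from 285 to 668 UMIs, the mean from 5.08 to 6.74 UMIs and the share from 1.79% to 0.890%. Macrophage-like cells of the explosion library, with median depths of 757 to 1660 UMIs over the groups, held 4.19 to 5.96. Control macrophage-like cells, with median depths of 3032 to 9483 UMIs, held 59.1 to 173, a rise close to that of the depth, and the share went from 2.11% in the shallowest group to 1.54% in the third and 1.61% in the deepest. The share was thus highest in the shallowest group of both cell types in both libraries. The part of depth in the order of the classes below the airway cells was not tested.

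Set against Scgb1a1, the proportions of the other genes differed more between the libraries than between most cell classes of a library. In the control there were 37.5 Scgb3a1 UMIs per 1000 Scgb1a1 UMIs in lymphoid cells (36.5 to 38.4), 35.6 in macrophage-like, 37.0 in mesothelial-like and 36.9 in secretory-like cells. Within the lymphoid cells NK-like cells stood above the others, at 44.7 (42.4 to 47.1) against 36.5 in T-like and 33.8 in B-like cells. Neutrophil-like cells were at 44.4 and ciliated-like cells at 64.6. In the explosion library the lymphoid, macrophage-like, mesothelial-like and secretory-like values were 1.89 (1.30 to 2.66), 2.25, 2.35 and 1.80. For Scgb3a2 the control values were 34.4, 31.7, 34.7 and 41.0, and the explosion values 11.3, 9.62, 10.1 and 16.5. Secretory-like cells held more Scgb3a2 per Scgb1a1 than lymphoid cells in both libraries, and the intervals did not overlap (40.9 to 41.1 against 33.5 to 35.4, and 16.1 to 16.9 against 9.76 to 12.99).

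Single clusters departed from this proportion. Cluster 13 held 128 Scgb3a1 UMIs per 1000 Scgb1a1 UMIs in the control and 64.9 in the explosion library, and cluster 5 held 7.63 and 1.31. Cluster 16 held 25.5 and 0.676. Type 2 alveolar-like cells held 11.2 Scgb3a1 (9.99 to 12.6) and 13.5 Scgb3a2 (12.2 to 15.02) in the control, below the lymphoid proportions of both genes.

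**Figure D4:**
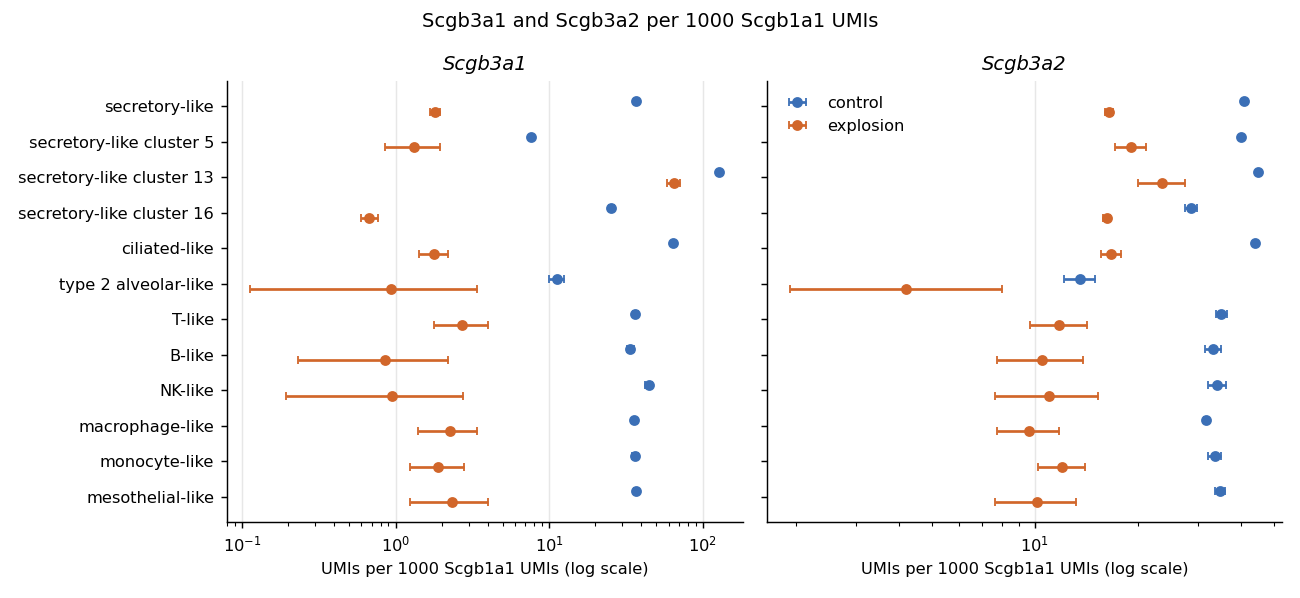
Scgb3a1 and Scgb3a2 UMIs per 1000 Scgb1a1 UMIs (log axis) in cell classes and 3 secretory-like clusters, with 95% counting intervals, in both libraries. In the control, T-, macrophage-, monocyte- and mesothelial-like cells lie near each other for Scgb3a1 (35.6 to 37.0) with NK-like cells to their right (44.7), and cluster 13 lies to the right for Scgb3a1 (128 and 64.9).

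Other proteins secreted with the secretoglobins were mostly lower too. Of 24 listed genes for co-secreted airway proteins, 12 were measured in secretory-like cells. Of these, 7 were lower and 3 higher past 2-fold, where 5.47% of all genes tested were lower and 57.8% higher. The list's median log2 ratio was -1.24 beside 1.33 for all genes tested. Bpifa1, encoding a surface-active antimicrobial protein, was at 518 CPM in the control and 8.90 in the explosion library, 58.2-fold lower (30.7 to 127). Wfdc2, encoding a secreted protease inhibitor, was at 10826 and 3088, 3.51-fold lower (3.39 to 3.63). Pigr, the receptor that carries IgA into the lumen, was 4.44-fold higher (4.21 to 4.68), and complement C3 3.52-fold higher (3.27 to 3.79). With the 3 secretoglobins left out of the denominator 8 were lower and 2 higher, where 15.7% of all genes tested were lower and 37.7% higher. In cluster 16, 4 of 11 were lower and 0 higher, beside 8.24% and 13.2% of all genes, with a median of -0.60 beside 0.20. Muc5b, the airway gel-forming mucin, was the lowest of them there at 8.34-fold, from 88 control and 48 explosion UMIs, a gene named after its value was seen. In cluster 13 Muc5b went the other way, at 7.95 UMIs per 10000 in the control and 30.9 in the explosion library, 3.88-fold higher (3.04 to 4.88). That explosion value rests on 73 UMIs in 25 cells. With the 3 secretoglobins left out of the denominator Muc5b was at 20.95 and 44.9 there. Over all genes, Cyp2f4 was 4.16-fold and Cyp2b1 2.37-fold higher in cluster 13. Bpifa1 was 4.74-fold lower there, and Lypd2 and Chia had 0 explosion UMIs.

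Among secretory-like cells, cluster 13 held most UMIs of both Bpifa1 and Scgb3a1. Cluster 13 held 19227 of the 19701 control Bpifa1 UMIs of secretory-like cells and all 9 of the explosion library. In lymphoid cells Bpifa1 had 233 UMIs in the control and 0 in the explosion library, where 3 counts would be 0.0221 UMIs per 10000, against 0.502 in the control.

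**Figure D5:**
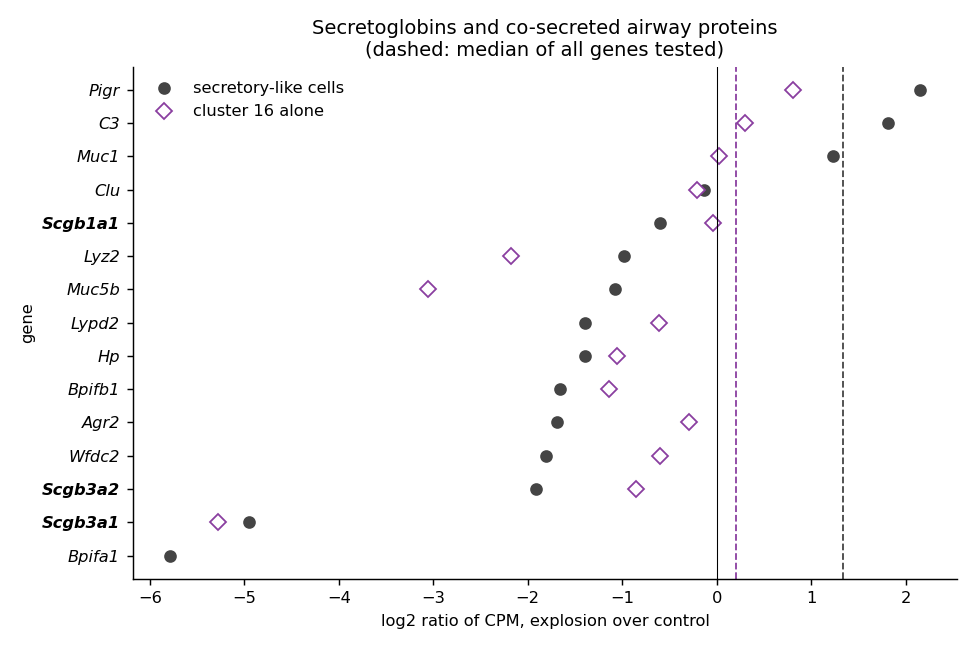
Log2 ratio of CPM, explosion over control, for the 3 secretoglobins (bold) and the measured co-secreted proteins, in all secretory-like cells (filled circles) and in cluster 16 alone (open diamonds). Dashed lines are the medians of all genes tested, 1.33 and 0.20; Bpifa1 and Scgb3a1 stand lowest in secretory-like cells, and Scgb1a1 moves to near 0 in cluster 16.

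The enzymes and membrane proteins of club cells had no member lower past 2-fold over all genes, and fewer higher than the background. Of 30 listed, 18 were measured, and 5 were higher and 0 lower, beside 57.8% and 5.47% of all genes tested. The median log2 ratio was 0.79, under the 1.33 of all genes tested. Cyp4b1, a cytochrome P450, was 7.04-fold higher (6.48 to 7.65) and Slc16a11, a monocarboxylate transporter family gene, 3.70-fold higher (3.17 to 4.29). Gstp1 was 1.78-fold lower (1.56 to 2.04) and Gsta1 1.62-fold lower (1.48 to 1.77), both encoding glutathione transferases. With the 3 secretoglobins left out of the denominator 3 of 21 were higher and 6 lower, beside 37.7% and 15.7% of all genes, with a median of -0.0066 beside 0.62. In cluster 16, 4 of 20 were higher and 1 lower, beside 13.2% and 8.24%, with a median of 0.27 beside 0.20.

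Of 25 airway transcription factors, 14 were measured, and 8 were higher and 0 lower past 2-fold, a share near the 57.8% of all genes that were higher, with a median of 1.29 beside 1.33. Nkx2-1, whose product activates secretoglobin genes, was at 45.9 and 267 CPM, 5.81-fold higher (5.09 to 6.61), and Nfib, a developmental factor of the lung, 5.27-fold higher (4.72 to 5.86). Xbp1, a factor of the secretory programme, was 1.55-fold lower (1.33 to 1.83) and Hes1, a Notch target, 1.11-fold lower with an interval that includes no difference (0.873 to 1.44). Nkx2-1 was 1.93-fold higher in cluster 16, where 0 of 15 factors were higher past 2-fold, beside 13.2% of all genes, and 1, Xbp1, was lower (2.39-fold), beside 8.24%.

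The machinery that moves proteins into the secretory pathway showed no single direction. Of 34 genes listed, 24 were measured, 9 were higher and 2 lower past 2-fold, beside 57.8% and 5.47% of all genes, with a median of 0.37 beside 1.33. With the 3 secretoglobins left out of the denominator 5 of 29 were higher and 5 lower, beside 37.7% and 15.7% of all genes. The median there was 0.02 beside 0.62. In cluster 16, 1 of 23 was higher and 0 lower, beside 13.2% and 8.24%, with a median of 0.45 beside 0.20. Ssr1 was 4.20-fold higher (3.66 to 4.81) and Ssr3 3.90-fold higher (3.40 to 4.47), both encoding subunits of the translocon-associated complex. Sec11c, a signal peptidase subunit, was 2.56-fold lower (1.85 to 3.66), and Ssr4 2.09-fold lower (1.69 to 2.62). Of 15 receptors and partners of secretoglobins only 2 were measured: Sdc1, a heparan sulfate proteoglycan, was 3.71-fold higher (3.04 to 4.49) and Dab2, an endocytic adaptor, 1.09-fold higher (0.839 to 1.39).

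The cytochrome P450 genes Cyp2f4 and Cyp2b1 and the protease inhibitor gene Wfdc2 were among the 5 genes most like each of the secretoglobins across clusters. Likeness was the lower of the 2 libraries' Pearson correlations of log2(CPM + 1), over 27 control and 18 explosion clusters and 9737 genes. The clusters of a library share its depth and free RNA, so these values are descriptions. For Scgb1a1 the highest were Cyp2b1 (0.95), Cyp2f4 (0.93), Sftpd (0.91), Wfdc2 (0.91) and Sftpb (0.90). For Scgb3a2 they were Cyp2f4 (0.95), Cyp2b1 (0.94), Wfdc2 (0.89), Bpifa5 (0.87) and Cldn10 (0.87). For Scgb3a1 they were Cyp2f4 (0.92), Cyp2b1 (0.90), Wfdc2 (0.89), Aldh1a1 (0.85) and C9 (0.84). Between the secretoglobins the value was 0.97 for Scgb1a1 with Scgb3a2, 0.89 for Scgb3a1 with Scgb3a2 and 0.87 for Scgb1a1 with Scgb3a1.

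Likeness across clusters did not go with one direction between the libraries. Wfdc2 was 3.51-fold lower in explosion secretory-like cells, as given with the co-secreted proteins. Cyp2f4 was at 7.98 UMIs per 10000 in control and 13.5 in explosion secretory-like cells, 1.70-fold higher (1.61 to 1.79). Cyp2b1 was at 3.09 and 5.74, 1.86-fold higher (1.71 to 2.02), and Sftpb at 25.5 and 50.05, 1.97-fold higher (1.91 to 2.02), each below the median shift of all genes (1.33 on the log2 scale). With the 3 secretoglobins left out of the denominator Cyp2f4 was at 22.97 and 22.86, Cyp2b1 at 8.88 and 9.70, and Sftpb at 73.2 and 84.5. In cluster 16, over all genes, these were 1.18-fold (1.02 to 1.37), 1.13-fold (0.910 to 1.40) and 1.14-fold (1.06 to 1.22) higher.

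The other secretoglobin genes were nearly or wholly undetected. Scgb1c1 had 58 UMIs in all kept control cells and 5 in the explosion cells, Scgb2a1 had 9 and 1, and Scgb2b2 had 3 and 0. Scgb1b24, Scgb1b30, Scgb1d2, Scgb1d4 and Scgb2b24 had 0 UMIs in both libraries.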

How the data were processed

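Single-cell RNA-seq counts (10x 3' chemistry, version 3, per the labels' protocols) were read from the deposited matrices of 1 control and 1 explosion library. The authors deposited raw UMI counts, 1 whole number for each gene in each barcode, and the files of gene symbols and barcodes beside them. Per the file headers, cellranger 7.1.0 wrote the matrices. Cell Ranger 6.1.1 and bcl2fastq 2.20, and both rn6 and mRatBN7.2 as builds, are named in the submitters' processing notes. Which build and gene models the counts rest on, and whether a library pooled animals, was not given in these sources.

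Barcodes with at least 200 genes and at most 25% mitochondrial UMIs stayed in: the gene minimum took out 21 control and 192 explosion barcodes, the mitochondrial limit 12 and 8. Doublets were called in each library with Scrublet (scanpy 1.11.5, expected rate 0.8% per 1000 cells), and 1853 control (8.79%) and 597 explosion cells (4.80%) were removed. Cells of both libraries were clustered together on 2000 variable genes, ranked across the libraries. The 3 secretoglobins and the immunoglobulin, hemoglobin, ribosomal and mitochondrial genes were left out. Clustering used 30 principal components, 15 neighbours with at least 2 shared and Leiden resolution 1 (igraph 0.11.9, seed 1), with no batch integration. Names were given to 30 of 32 clusters by marker lists for 22 classes (284 of 292 markers were found). A name needed at least 3 markers raised at least 2-fold over the other clusters of the library with most of the cluster's cells and held by 5% of its cells. Naming within that library was settled after the clusters were seen. Naming over both libraries pooled had left cluster 16, with 663 of the 722 explosion secretory-like cells, unnamed. The explosion values of the secretory-like class rest on this choice, and pooled naming was not among the settings run. The gate on single cells uses no cluster names. A cluster led by C1qc, C1qa and C1qb stayed unnamed.

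UMIs were summed per library and class. Intervals are exact (Poisson for counts, conditional Poisson for ratios, Clopper-Pearson for shares) at the 95% level and cover counting error only. Log2 ratios of all genes tested and of the lists, and of the 3 genes relative to the median, add 0.5 counts to each sum. Folds and the other log2 ratios of the 3 genes add none. A gene was tested against the 2-fold line at a mean CPM of at least 50. A count of 0 was read against 3 counts. The interval and the 2-fold call were run on simulated Poisson counts, the model that the intervals assume. Such counts leave out the unevenness between cells, so they cannot show how the intervals hold under it. Genes named by list were the 2 highest and 2 lowest measured members, and by likeness the first 5 of genes with at least 100 UMIs in each library. The members and lists were chosen with earlier results of these data known. Promoters came from RefSeq on GRCr8, used for these windows alone.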

Additional observations from a re-analysis of the deposited data

How the results depend on the processing

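No paired analysis was possible because each group has 1 library. Every log2 ratio of explosion over control kept its sign under every setting run: 11 for secretory-like and 12 for lymphoid cells. The values below are the log2 ratios and Scgb1a1 shares that moved by more than counting error and the counts that moved by more than 1.5 times, and the cause was not tested unless the setting itself gives it. In secretory-like cells Scgb1a1 had -0.60, Scgb3a1 -4.95 and Scgb3a2 -1.91. The 3 became -0.49, -4.77 and -1.81 with doublets kept, -0.52, -4.83 and -1.78 when thinned to 500 UMIs, -1.37 (-1.365), -5.72 and -2.68 with the 3 genes out of the denominator, and -0.039, -5.28 and -0.86 in cluster 16 alone. Scgb1a1 and Scgb3a1 became -0.57 and -5.13 at no more than 10% mitochondrial UMIs, -0.65 and -4.41 with a single-cell gate, and -0.66 and -4.00 without the Bpifa1-led cluster. Scgb1a1 was -0.58 (-0.575) with at least 500 UMIs per cell, and Scgb3a1 -5.06 at resolution 2.

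In lymphoid cells the 3 genes had -1.40, -5.71 and -3.01, and became -2.42, -7.00 and -4.18 with doublets kept, a 5.37-fold in place of a 2.64-fold difference for Scgb1a1. In NK-like cells alone they were -1.72, -7.28 and -3.35. Scgb1a1 and Scgb3a1 were -1.30 and -5.06 (-5.055) in T-like cells and -1.34 and -6.65 in B-like cells. Scgb1a1 and Scgb3a2 were -1.80 and -3.27 with at least 500 UMIs, -1.58 and -3.30 with the gate, and -1.89 and -3.49 when thinned. Scgb1a1 was -1.44 with the 3 genes out of the denominator.

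The secretory-like share of Scgb1a1 UMIs, 80.3% in the control and 79.3% in the explosion library, was 80.9% and 79.0% with the 3 genes kept in clustering, 74.8% and 78.9% at resolution 0.5, 74.8% and 78.9% at resolution 2, 78.2% and 77.9% with doublets kept, and 80.1% and 79.0% at 10% mitochondrial UMIs. It was 71.7% and 42.3% with the gate, 72.9% and 80.4% when thinned, 60.6% and 78.0% (77.9966%) without the Bpifa1-led cluster, 94.3% and 88.3% with the mixed ciliated-like clusters, and 82.5% in the explosion library with at least 500 UMIs. Over all settings the Scgb3a1 share ran from 10.9% to 94.99% in the control and 31.1% to 83.1% in the explosion library, both lowest without the Bpifa1-led cluster. The Scgb3a2 share ran from 58.6% to 95.9%, lowest without that cluster, and from 47.2% to 91.4%, lowest with the gate. Genes higher and lower past 2-fold, 1035 and 98, became 2867 and 151 at a mean CPM of 20, and 314 and 196 in cluster 16. The lower count was 191 with doublets kept, 592 with the 3 genes out of the denominator and 17 past 3-fold. The settings without the Bpifa1-led cluster, in cluster 16 alone and with the mixed clusters were chosen after seeing the data. Depth limits Scgb3a1 in the explosion library most, with 929 UMIs in all kept cells.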

Other observations

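The largest Scgb1a1 entry of the explosion library was 1604 UMIs, in 1 cell of 3737 UMIs, against 57794 in the control library. Sftpc, the surfactant gene of type 2 cells, was at 2.98 UMIs per 10000 in control lymphoid cells and 1.91 in those of the explosion library, 1.56-fold lower (1.36 to 1.78), a smaller fold there than that of the secretoglobins. Cyp2f4 was at 0.426 and 0.618 in the same cells, 1.45-fold higher (1.11 to 1.88).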
